A study of Mus musculus with 2 samples.

Results

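The genes described here are named for proteins of the mitochondrial ribosome. They were measured in mouse CD8+ T cells that had been kept with 1 of 5 peptide stimuli or rested. They were taken by symbol, as every gene named Mrpl or Mrps followed by a number, without pseudogenes, and 78 of the 32285 genes in the matrix met this rule. Of these, 51 were counted to the large subunit and 27 to the small one, with Mrps30 and Mrps18a counted as large subunit proteins in spite of their names. For all others, Mrps36 included, a place in the particle was taken from the symbol alone. All 78 had UMIs (unique molecular identifiers, the counted mRNA molecules), and all reached 10 CPM (UMIs of the gene with all UMIs of the condition scaled to 1000000) in at least 1 condition.

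The cells were CD8+ T cells of WT mouse spleen, cultured for 30 h. In 5 cultures, biotinylated monomers of the MHC molecule H-2Db carried a peptide on streptavidin-coated plates. Peptide M9C was given at 0.2, 2 and 20 pmol and peptide L6F at 20 and 80 pmol, while the rested culture received no such stimulus. The sources used here give neither the T cell receptor of the cells nor the number of mice. Live cells were sorted with propidium iodide, with more cells taken from each stimulated culture than from the rested one. Hashtag antibodies marked the culture of origin, and the cells shared 1 lane of a 10x Genomics chip.

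Mitochondrial ribosomes sit in the mitochondrial matrix and translate the few mRNAs that mitochondrial DNA encodes, all of them for core subunits of the respiratory chain and ATP synthase. Their rRNAs come from mitochondrial DNA, whereas every protein of the particle is encoded in the nucleus, made in the cytosol and imported. Some of these proteins have counterparts in the bacterial ribosome and others occur only in mitochondria. T cells that leave the resting state enlarge and build up mitochondria, and mitochondrial translation is known to be needed for their expansion.

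A cell was given a condition where its top hashtag had 20 or more counts and 80% or more of all hashtag counts, which held for 11671 of 13439 barcodes. The stimulated cultures gave 1633 to 2515 cells each and the rested culture 1583. The stimulated cultures had 11410243 to 16041955 UMIs and a median of 6017 to 7017 UMIs per cell, against 1495231 UMIs and a median of 846 UMIs per cell in the rested culture. Cells with under 500 detected genes made up 1.16% to 3.3% of stimulated cells and 52.3% of rested cells. All 6 markers of CD8 T cells had UMIs in every condition, with a summed level of 2000 to 2160 CPM in stimulated cells and 4210 CPM in rested cells. Markers of gamma-delta T cells (58.7 to 113 CPM in stimulated cells, 449 CPM in rested cells) and of macrophages (0.848 to 25.3 CPM in stimulated cells, 92.3 CPM in rested cells, nearly all Lyz2) also differed, with 4 of 4 and at most 4 of 5 of their genes detected. Erythroid markers summed to 2.61 to 41 CPM in stimulated cells and 99 CPM in rested cells (4 or 5 of 5 genes), and basophil and mast cell markers to 0.29 to 2.66 CPM in stimulated cells and 9.36 CPM in rested cells (3 to 5 of 5 genes). Cd4 was at 0.0771 CPM or less, and Cd14 was at 0 in rested cells. B cell markers summed to 210 to 260 CPM in stimulated cells and 305 CPM in rested cells, mostly Ighm. The part of these other cells in the results below was not tested. Leaving out cells with 2 or more UMIs of such markers, Ighm not counted, kept the summed mitoribosomal ratio of each comparison within its counting interval. That cutoff removed 10.0% of rested cells and 10.5% to 19.4% of stimulated cells. Rested cells hold far fewer UMIs, so a fixed cutoff in UMIs cannot decide this part. Every condition was 1 culture, so no difference has a replicate check and no test between conditions is given. All intervals are 95% intervals that cover counting error only.

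Mitoribosomal protein mRNAs took up a larger share of all UMIs in each of the 5 stimulated cultures than in the rested culture. Their summed level was 7101 CPM (exact Poisson interval 6967 to 7238) in rested cells, 12869, 12791 and 12547 CPM with 0.2, 2 and 20 pmol M9C, and 12464 and 12346 CPM with 20 and 80 pmol L6F. The 5 stimulated cultures lay close together and the rested one lay apart. The sum with 20 pmol M9C was 1.77-fold that of rested cells, a log2 ratio of 0.82 (exact Clopper-Pearson interval 0.79 to 0.85), and with 80 pmol L6F the log2 ratio was 0.80 (0.77 to 0.83). With 0.2 and 2 pmol M9C and 20 pmol L6F it was 0.86, 0.85 and 0.81. Since stimulated cells also held several times more UMIs, the difference per cell was larger. A rested cell held on average 6.71 mitoribosomal UMIs, cells under 0.2, 2 and 20 pmol M9C held 89.9, 87.4 and 83.8, and cells under 20 and 80 pmol L6F held 79.5 and 76.1. These levels were 13.4, 13 and 12.5 times the rested level for M9C and 11.9 and 11.4 times for L6F, whereas UMIs of all genes were 7.40, 7.23 and 7.07 times and 6.75 and 6.53 times as many. No barcode in the matrix held fewer than 500 UMIs. The 5th percentile of UMIs per cell was 541 in rested cells and 1743 to 2390.8 in stimulated cells. Rested cells thus lay close to this lower limit, and its part in the levels per cell was not tested.

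**Figure D1:**
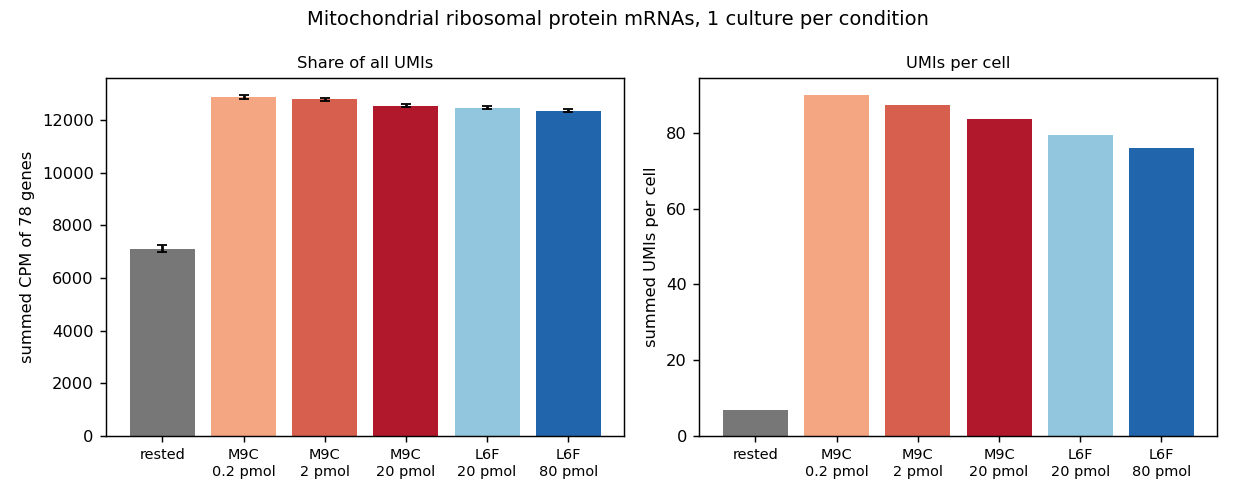
Summed level of the 78 mitoribosomal protein genes in the rested culture and in cultures with rising doses of M9C and L6F, as CPM with exact Poisson 95% intervals (left) and as UMIs per cell (right). Each bar is 1 culture. The 5 stimulated cultures stand at 12346 to 12869 CPM and the rested culture at 7101 CPM.

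The difference was spread over the family. In each of the 5 comparisons with the rested culture, which all share that culture as their denominator, 75 of 78 members had a log2 ratio above 0. Members at least 2-fold higher than in rested cells, with an interval that excluded equality, numbered 34, 34 and 32 of 78 with 0.2, 2 and 20 pmol M9C and 26 and 25 of 78 with 20 and 80 pmol L6F. Of the 78, 23 passed in all 5 comparisons and 35 in at least 1. Among all genes that reached 10 CPM in one of the conditions compared, the same rule was met by 17.8%, 17.7% and 18.0% for M9C and by 15.7% and 15.0% for L6F. In no comparison was a member at least 2-fold lower, a rule that 16.8%, 16.9% and 16.7% of all genes met for M9C and 14.6% and 13.7% for L6F. With a smaller threshold, 25% or more above the rested level, 71, 70 and 68 members passed for M9C and 70 and 68 for L6F, beside 35.1%, 34.8%, 35.6%, 33.5% and 33.0% of all genes. The equal fold in the other direction, 20% or more below the rested level, was met by 0, 1 and 2 members for M9C and by none for L6F, beside 29.4%, 29.9%, 29.4%, 29.2% and 28.4% of all genes. The median log2 ratio over members was 0.91, 0.89 and 0.86 for M9C and 0.82 and 0.83 for L6F, and over all genes 0.08, 0.07 and 0.09 for M9C and 0.06 for both L6F doses. The counts at 2-fold depended on the processing, and with HTODemux hashtag calls and filters on genes and mitochondrial UMIs they were 17, 14 and 16 for M9C and 10 and 9 for L6F, or 21.8%, 17.9%, 20.5%, 12.8% and 11.5% of members, beside 12.8%, 12.5%, 12.9%, 10.7% and 9.98% of all genes under that setting. The L6F shares were then near those of all genes. With cytosolic ribosomal protein, mitochondrial, Malat1 and Gm42418 UMIs left out of the total they were 18, 16, 13, 12 and 10, or 23.1%, 20.5%, 16.7%, 15.4% and 12.8% of members, beside 12.2%, 12%, 12.2%, 10.6% and 10.2% of all genes.

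Mrps6, a small subunit protein with a bacterial counterpart (chr16:92058270-92112227, + strand, GRCm38), had the highest ratios. It stood at 60.2 CPM in rested cells, at 239, 252 and 252 CPM with 0.2, 2 and 20 pmol M9C, and at 198 and 192 CPM with 20 and 80 pmol L6F. Its log2 ratio over rested cells was 2.07 (1.76 to 2.39) with 20 pmol M9C and 1.67 (1.37 to 1.99) with 80 pmol L6F, so that each stimulated culture was well above the rested one and M9C cultures were above L6F cultures. Exons of Mrps6 overlap those of Slc5a3, a transporter gene on the same strand, which makes its counts less certain. Exons of Mrps34 and Mrps24 also overlap same-strand genes.

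Mrps7 (chr11:115603925-115608036, + strand), a protein of the small subunit head, had 101 CPM in rested cells, 303, 313 and 305 CPM along the rising M9C doses and 268 and 269 CPM along the L6F doses. Mrpl12 (chr11:120484613-120489065, + strand) is the counterpart of the bacterial stalk protein that recruits translation factors to the ribosome. It had 312 CPM in rested cells, 946, 918 and 881 CPM with 0.2, 2 and 20 pmol M9C, and 867 and 862 CPM with 20 and 80 pmol L6F. With 20 pmol M9C its log2 ratio over rested cells was 1.5 (1.36 to 1.64), and in UMIs per cell it stood at 5.88 with 20 pmol M9C and at 0.294 in rested cells. Mrpl12 thus had a high level and a high ratio at once, and Mrpl12, Mrpl20 and Mrps24 together held 14.4% of all mitoribosomal UMIs, a share of counts that is not divided by transcript length.

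Mrpl18, the counterpart of the bacterial protein that binds 5S rRNA, had 165 CPM in rested cells, 444, 437 and 445 CPM with M9C and 443 and 449 CPM with L6F. Its 5 stimulated values were nearly level. Mrpl35, a large subunit protein, had 84.3 CPM in rested cells, 250, 241 and 230 CPM with M9C and 238 and 223 CPM with L6F. Mrpl1, a protein of the stalk near the tRNA exit site, had 32.1 CPM in rested cells, 91.9, 91.2 and 84.5 CPM with M9C and 78.5 and 77.5 CPM with L6F. A pair of small subunit proteins completed the set of 8 members with the highest mean ratio among those at 50 CPM or more. Mrps11, which has a bacterial counterpart, had 29.4 CPM in rested cells, 72.4, 77.2 and 80.1 CPM with M9C and 75.1 and 73.2 CPM with L6F. Mrps22, which occurs only in mitochondria, had 32.8 CPM in rested cells, 83.3, 82.4 and 79.5 CPM with M9C and 79.4 and 81.0 CPM with L6F. In all 8 the lowest stimulated value was more than 2-fold the rested value.

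At the other end, 3 members had lower CPM in each of the 5 stimulated cultures than in the rested one, all of them in the large subunit. Not every interval excluded equality. It lay below equality in 2, 3 and 3 of them with 0.2, 2 and 20 pmol M9C. With 20 and 80 pmol L6F it did so in 2 and 1. Mrpl58 (chr11:115403752-115412674, + strand) encodes a peptidyl-tRNA hydrolase built into the large subunit, known for releasing peptides from stalled ribosomes. It had 272 CPM in rested cells, 227, 217 and 214 CPM with 0.2, 2 and 20 pmol M9C, and 244 and 252 CPM with 20 and 80 pmol L6F. Its log2 ratio over rested cells was -0.35 (-0.50 to -0.19) with 20 pmol M9C and -0.11 (-0.25 to 0.05) with 80 pmol L6F, so the L6F value at the higher dose was not distinguishable from rested cells by counting error. Mrpl23 (chr7:142532686-142540747, + strand) and Mrpl24 (chr3:87919506-87923672, + strand) are counterparts of bacterial proteins at the exit of the peptide tunnel. Mrpl23 had 186 CPM in rested cells, 149, 155 and 145 CPM with M9C and 167 and 161 CPM with L6F, and its log2 ratio with 20 pmol M9C was -0.36 (-0.54 to -0.17). Mrpl24 had 99.7 CPM in rested cells, 84, 80.9 and 80.8 CPM with M9C and 83.5 and 85.1 CPM with L6F, and its log2 ratio with 20 pmol M9C was -0.30 (-0.55 to -0.05). An Mrpl23 pseudogene is annotated, and exons of Mrpl58 and Mrpl24 overlap genes on the other strand (Ict1os and Rrnad1), which makes these counts less certain because strand use in counting is not stated in the sources used here. The same limit holds for all 27 members with such an overlap, among them Mrps7, Mrpl18 and Mrps11 at the high end.

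These 3 ratios were lower only as shares of all UMIs. In UMIs per cell, Mrpl58 had 1.43 with 20 pmol M9C and 0.256 in rested cells, Mrpl23 had 0.968 with M9C and 0.176 in rested cells, and Mrpl24 had 0.539 with M9C and 0.0941 in rested cells. Per cell all 78 members were at least 2-fold higher in each of the 5 stimulated cultures, as were 93.0% to 94.5% of all genes. The members nearest to equality above them, by the mean of the 5 ratios, were Mrpl43, Mrpl33 and Mrps9, with log2 ratios of 0.13 (-0.07 to 0.34), 0.18 (-0.05 to 0.41) and 0.09 (-0.20 to 0.39) for 20 pmol M9C over rested cells. The members 20% or more below rested cells were Mrpl23 and Mrpl58 with 20 pmol M9C and Mrpl58 alone with 2 pmol M9C.

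**Figure D2:**
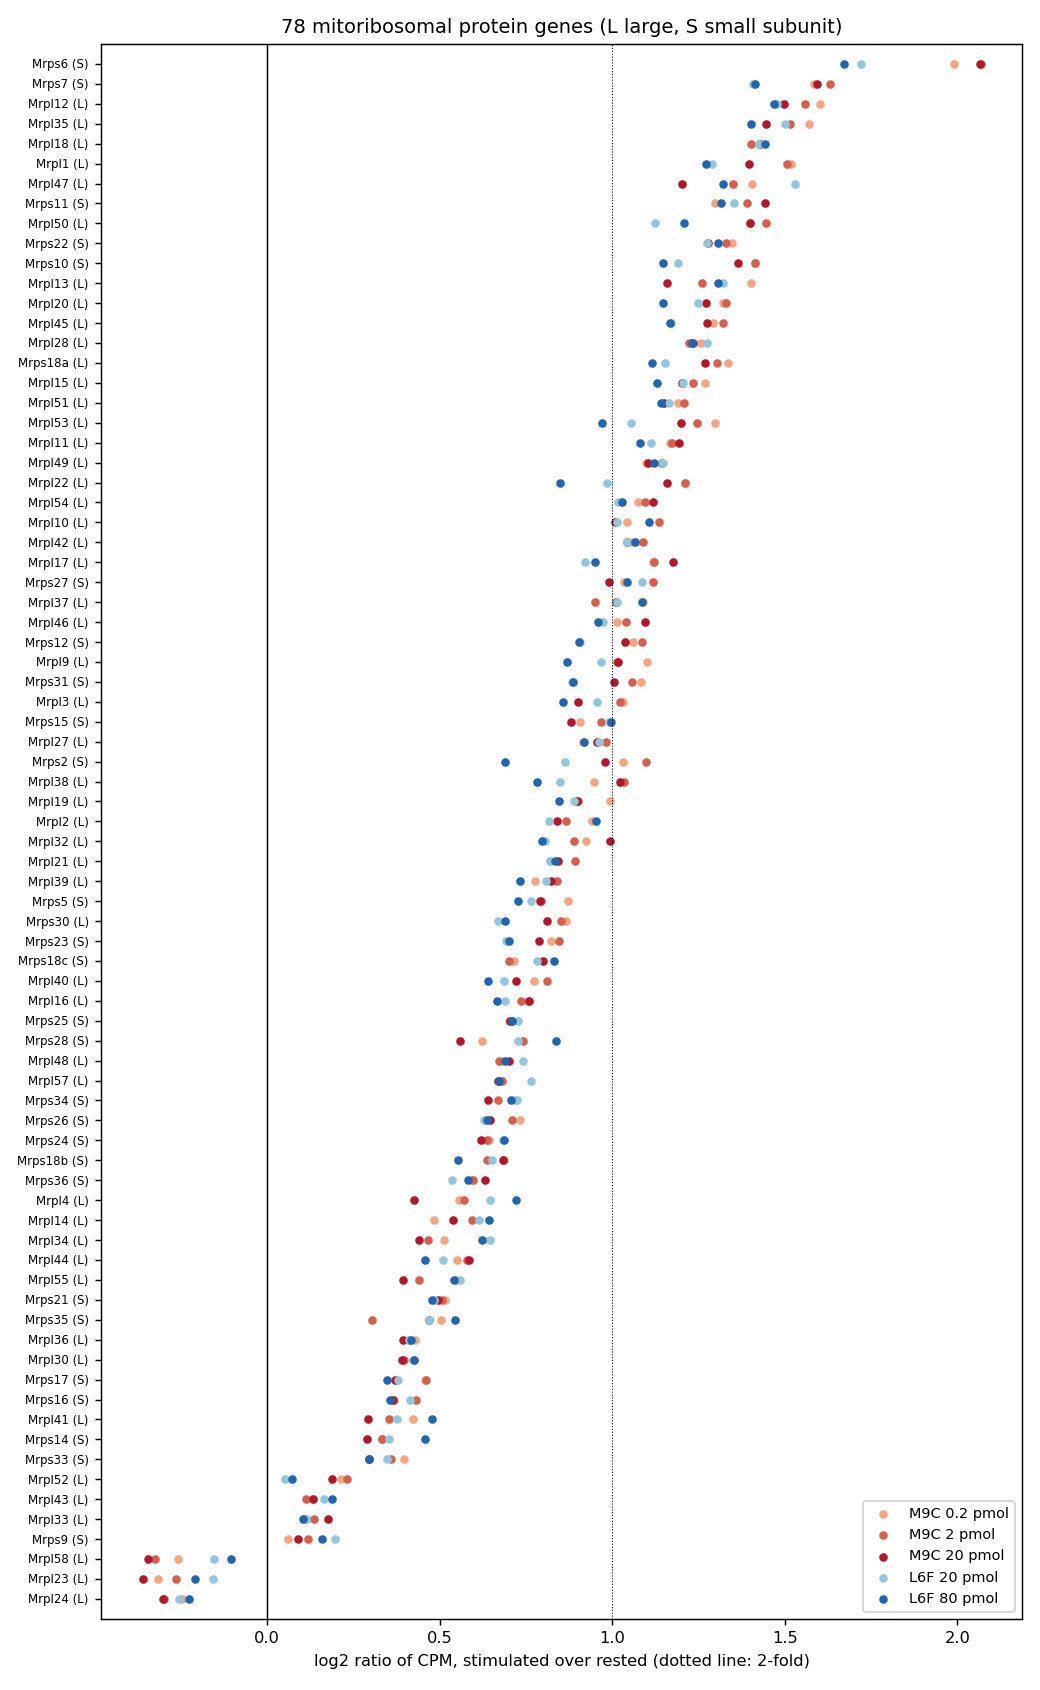
Log2 ratio of CPM of each of the 78 members in 5 stimulated cultures over the rested culture, 1 point per culture, ordered by the mean of the 5 ratios. The solid line marks equality and the dotted line 2-fold. 75 members lie right of equality in all 5 cultures, and Mrpl58, Mrpl23 and Mrpl24 lie left of it.

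Both subunits took part. The 51 large subunit genes summed to 8468 CPM with 20 pmol M9C and 4689 CPM in rested cells, a log2 ratio of 0.85 (0.82 to 0.89). The 27 small subunit genes summed to 4078 CPM with 20 pmol M9C and 2412 CPM in rested cells, a log2 ratio of 0.76 (0.71 to 0.81). With 80 pmol L6F these log2 ratios were 0.83 (0.80 to 0.87) and 0.73 (0.68 to 0.78), in the same order. At least 2-fold higher were 25 of 51 large and 7 of 27 small subunit members with 20 pmol M9C and 19 of 51 and 6 of 27 with 80 pmol L6F, beside 18.0% and 15.0% of all genes. The small subunit's shares were closer to those of all genes than the large subunit's. The 46 members with a bacterial counterpart had a summed log2 ratio of 0.89 (0.85 to 0.92) with 20 pmol M9C, and the 32 members that occur only in mitochondria one of 0.70 (0.66 to 0.75). The medians over members were 0.90 with and 0.80 without a bacterial counterpart, closer than the sums, whereas those of the subunits, 0.99 for the large and 0.71 for the small one, were further apart than the sums. The interval of 43 of 78 members excluded the ratio of the sum with 20 pmol M9C, so the members did not share 1 ratio within counting error.

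Among the stimulated cultures the family varied far less. For each member the highest of the 5 stimulated CPM values was compared with the lowest, and the ratio had a median of 1.1 over members. In 73 of 78 the highest value was under 25% above the lowest. The largest ratio, 1.32, was that of Mrps2, a small subunit protein with a bacterial counterpart, which had 13.7, 14.3 and 13.2 CPM with M9C and 12.2 and 10.8 CPM with L6F. It had only 149 to 195 UMIs per stimulated culture. The intervals of its highest value (12.3 to 16.6 CPM) and its lowest value (9.13 to 12.7 CPM) overlapped. The summed log2 ratio was -0.01 (-0.02 to 0.00) for 2 over 0.2 pmol M9C, -0.03 (-0.04 to -0.02) for 20 over 2 pmol M9C, and -0.04 (-0.05 to -0.03) for 20 over 0.2 pmol M9C. For 80 over 20 pmol L6F it was -0.01 (-0.02 to -0.004). A higher dose of either peptide thus came with an equal or slightly smaller share of mitoribosomal UMIs, 0.994 and 0.981 times the next lower dose for M9C and 0.991 times for L6F. Along the 3 M9C doses, 29 members (37.2%) had lower CPM at every step and 8 (10.3%) had higher CPM at every step, beside 18.9% and 19.1% of all genes that reached 10 CPM with M9C.

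No member passed 2-fold between stimulated cultures in either direction. Over all genes at 10 CPM or more the shares past 2-fold were also small, 0.115% higher and 0.0576% lower for 2 over 0.2 pmol M9C, 0.0288% and 0.0432% for 20 over 2 pmol M9C, 0.272% and 0.143% for 20 over 0.2 pmol M9C, and no gene for 80 over 20 pmol L6F. In these 4 dose comparisons no member was 25% or more above or 20% or more below the lower dose. Of all genes, 1.54% were above and 1.83% below for 2 over 0.2 pmol M9C, 1.61% and 0.662% for 20 over 2 pmol M9C, 3.3% and 1.88% for 20 over 0.2 pmol M9C, and 0.963% and 1.04% for 80 over 20 pmol L6F. The member with the clearest dose difference was Mrpl13, a large subunit protein with a bacterial counterpart, at 193, 175 and 163 CPM with 0.2, 2 and 20 pmol M9C. Its log2 ratio for 20 over 0.2 pmol was -0.24 (-0.33 to -0.16), and that of the stalk protein Mrpl12 was -0.10 (-0.14 to -0.07). Mrps11 differed the other way, with 0.15 (0.01 to 0.28). Along the L6F doses, Mrpl20 had a log2 ratio of -0.10 (-0.15 to -0.05) and Mrpl2, which lies at the core of the large subunit, one of 0.13 (0.05 to 0.22) for 80 over 20 pmol. Mrps14, a small subunit protein with a bacterial counterpart, had 288 CPM with 80 pmol and 268 CPM with 20 pmol L6F, a log2 ratio of 0.10 (0.04 to 0.17). Mrps35, a small subunit protein that occurs only in mitochondria, was lowest at the middle M9C dose, with log2 ratios of -0.20 (-0.36 to -0.04) for 2 over 0.2 pmol and 0.17 (0.01 to 0.32) for 20 over 2 pmol. With 12 members below and 2 above equality for 20 over 0.2 pmol M9C by their intervals, beside 8.14% and 8.66% of all genes, lower members outnumbered higher ones.

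At the matched dose of 20 pmol, M9C and L6F gave nearly the same summed level, 12547 CPM with M9C and 12464 CPM with L6F, a log2 ratio of 0.01 (0.0001 to 0.02). That sign depended on the scaling, since it was -0.01 under TMM. By their intervals 17 members were above and 11 below equality, 21.8% and 14.1% of members beside 21.0% and 17.8% of all genes, so these shares were near those of all genes. Mrps6 was higher with M9C (252 CPM) than with L6F (198 CPM), a log2 ratio of 0.35 (0.27 to 0.42), and was the only member with M9C 25% or more above L6F, as were 6.83% of all genes. Mrpl17 had 260 CPM with M9C and 218 CPM with L6F, a log2 ratio of 0.26 (0.19 to 0.32), and Mrps7 had 305 CPM with M9C and 268 CPM with L6F, a log2 ratio of 0.18 (0.12 to 0.25). Lower with M9C were Mrpl34 (306 CPM with M9C and 354 CPM with L6F), Mrpl58 (214 CPM with M9C and 244 CPM with L6F) and Mrpl4 (98.8 CPM with M9C and 115 CPM with L6F), with log2 ratios of -0.21 (-0.27 to -0.15), -0.19 (-0.26 to -0.12) and -0.22 (-0.33 to -0.12). The 1 member with M9C 20% or more below L6F was Mrpl47, at 27.7 CPM with M9C and 34.8 CPM with L6F (log2 ratio -0.33, -0.52 to -0.14), as were 7.36% of all genes, and it is named here after its values were seen. At 2-fold 0.883% of all genes were higher and 0.74% lower in this comparison.

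**Figure D3:**
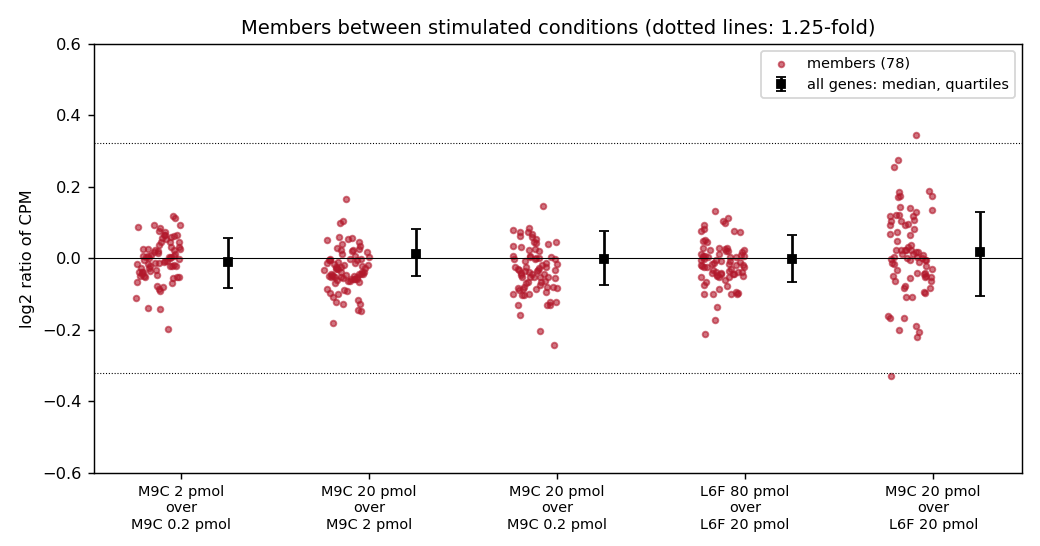
Log2 ratio of CPM of the 78 members (red points) in 5 comparisons between stimulated cultures, beside the median and quartiles over all genes at 10 CPM or more (black). Dotted lines mark 25% above and 20% below equality. The members lie between them in the 4 dose comparisons, and Mrps6 and Mrpl47 lie outside for 20 pmol M9C over 20 pmol L6F.

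Other genes of mitochondrial gene expression were described with the same measures, counting a gene as higher at 25% or more above and as lower at 20% or more below the rested level with an interval that excluded equality. With 20 pmol M9C, 35.6% of all genes were higher and 29.4% lower by this rule. The 5 mitoribosomal proteins with other symbols summed to 923 to 956 CPM in stimulated cells and 486 CPM in rested cells, and all 5 were higher in every stimulated culture. Gadd45gip1, which lies near the tunnel exit of the large subunit, had 264 CPM with 20 pmol M9C and 108 CPM in rested cells, and Dap3, a GTP-binding protein of the small subunit, had 165 CPM with 20 pmol M9C and 70.9 CPM in rested cells. At the low end of this list, Aurkaip1 had 253 CPM with 20 pmol M9C and 167 CPM in rested cells, and Ptcd3 had 63.2 CPM with M9C and 38.8 CPM in rested cells.

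Factors that assemble the particle or modify its rRNA were divided. Of 21 measured with 20 pmol M9C, 8 were higher and 4 lower than in rested cells, shares not far from those of all genes, and their median log2 ratio, 0.10, was close to the 0.09 of all genes. C1qbp, a matrix protein of ribosome assembly, had 503 CPM with 20 pmol M9C and 213 CPM in rested cells, and Rcc1l had 29.1 CPM with M9C and 10 CPM in rested cells. Lower were Mrm1, a methyltransferase of the large rRNA, with 6.56 CPM under M9C and 16.7 CPM in rested cells, and Mettl17 with 5.24 CPM under M9C and 11.4 CPM in rested cells. Of 11 translation factors measured, 5 were higher and 1 was lower with 20 pmol M9C, too few genes to set apart from the share over all genes. Tufm, the elongation factor that brings aminoacyl-tRNA to the ribosome, had 137 CPM with 20 pmol M9C and 62.9 CPM in rested cells. Taco1, an activator of mt-Co1 translation, had 18.8 CPM with M9C and 8.69 CPM in rested cells. The initiation factor Mtif3 had 25.1 CPM with M9C and 38.8 CPM in rested cells. Mtfmt, which formylates the initiator tRNA, had 12.7 CPM with M9C and 15.4 CPM in rested cells, with an interval that included equality.

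Of 9 measured genes for transcription and upkeep of mitochondrial DNA, 5 were higher with 20 pmol M9C and no gene was lower. Slirp, which stabilises mitochondrial mRNAs, had 44.7 CPM with 20 pmol M9C and 17.4 CPM in rested cells, and the DNA-packaging factor Tfam had 61.1 CPM with M9C and 35.4 CPM in rested cells. Polg2 and Tefm were the lowest of this list, with 11.6 and 7.79 CPM in 20 pmol M9C cells and 12 and 10.7 CPM in rested cells, and with intervals that included equality.

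The mRNAs that mitochondrial ribosomes translate differed in the other direction as a share of UMIs. The 13 mRNAs of mitochondrial DNA summed to 17081 to 18946 CPM in stimulated cells and 24317 CPM in rested cells, a log2 ratio of -0.50 (-0.52 to -0.49) with 20 pmol M9C. Of the 13, 6 were lower and 2 higher. mt-Co1, a catalytic subunit of cytochrome c oxidase, had 2231 CPM with 20 pmol M9C and 4373 CPM in rested cells, and mt-Nd6 had 24.1 CPM with M9C and 47.5 CPM in rested cells. Higher were mt-Atp8, with 145 CPM under M9C and 72.9 CPM in rested cells, and mt-Nd3, with 127 CPM under M9C and 68.9 CPM in rested cells. In UMIs per cell the sum of the 13 was 4.98 times the rested level with 20 pmol M9C, so its direction depends on the scale, and the corresponding figures were 12.5 for the mitoribosomal members and 7.07 for all genes. The nuclear genes of the respiratory chain and ATP synthase lay in between, with 42 of 77 measured genes higher and 6 lower with 20 pmol M9C and a median log2 ratio of 0.36. In that list Ndufab1 and Uqcr10 had 377 and 531 CPM with 20 pmol M9C and 157 and 231 CPM in rested cells, and Ndufa6 and Cox7a2l had 97.2 and 360 CPM with 20 pmol M9C and 188 and 882 CPM in rested cells.

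Proteins of the cytosolic ribosome also differed in the other direction as a share of UMIs. Their 84 genes summed to 253537 to 259922 CPM in stimulated cells and 334662 CPM in rested cells, a log2 ratio of -0.40 (-0.40 to -0.39) with 20 pmol M9C. With that stimulus 48 of 81 measured genes were lower and 6 higher. Rps24 and Rps27 had 2632 and 579 CPM with 20 pmol M9C and 6109 and 1278 CPM in rested cells. The paralogs Rps27l and Rpl7l1, which match the symbol rule of the list, had 326 and 294 CPM with 20 pmol M9C and 124 and 115 CPM in rested cells. Per cell, the cytosolic sum was 5.37 times the rested level with 20 pmol M9C, so in UMIs per cell the mRNAs of both groups were higher, and those of the mitochondrial ribosomal proteins by more.

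**Figure D4:**
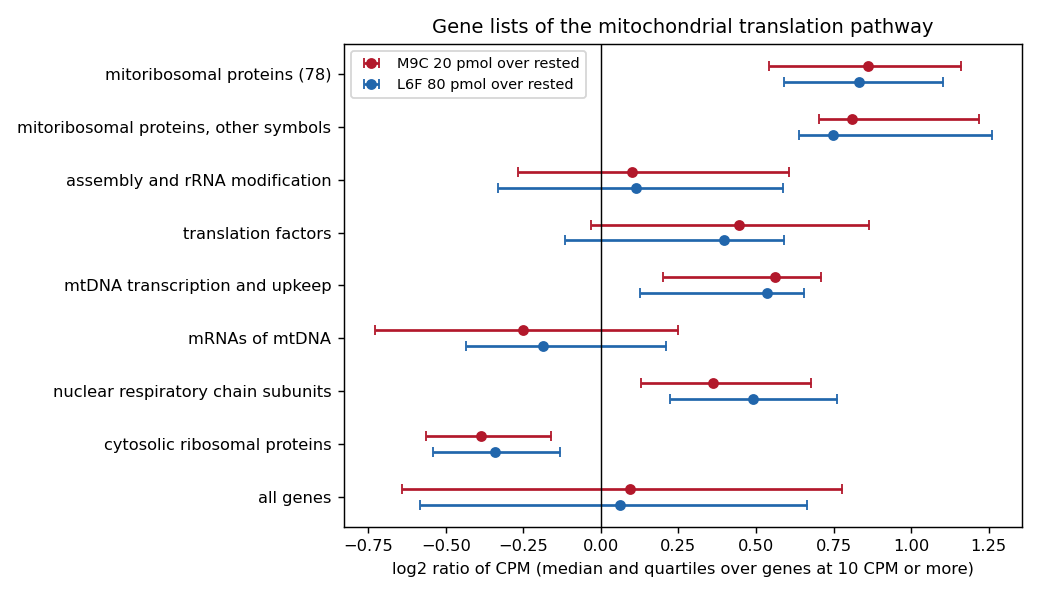
Median (point) and quartiles (bar) of the log2 ratio of CPM over the measured genes of each list, for 20 pmol M9C and 80 pmol L6F over rested cells. With 20 pmol M9C the mitoribosomal members have a median of 0.86, all genes one of 0.09 and cytosolic ribosomal proteins one of -0.39.

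Cells were also thinned to a common depth to describe their spread. Thinning keeps the expected share of each cell, so it is no check of the part that depth takes in the difference. With each cell thinned at random to 500 UMIs, a rested cell kept 3.44 ± 1.91 mitoribosomal UMIs (mean ± SD over 1583 cells), cells with 0.2, 2 and 20 pmol M9C kept 6.26 ± 2.65, 6.17 ± 2.69 and 6.08 ± 2.72, and cells with 20 and 80 pmol L6F kept 6.0 ± 2.56 and 6.08 ± 2.59. These SDs describe cells of 1 culture and not replicates. The quartiles were 4.0 and 8.0 in each stimulated culture and 2.0 and 5.0 in rested cells, so the cell distributions overlapped while their centres lay apart. Cells left with no mitoribosomal UMI made up 0.357% to 0.927% of stimulated cells and 4.04% of rested cells. The variance over the mean, which is 1 when counts scatter only by sampling, was 1.09 to 1.22 in stimulated cells and 1.06 in rested cells, so little spread beyond sampling was seen at this depth. Unthinned, the median was 72 to 88 mitoribosomal UMIs per stimulated cell and 6 per rested cell.

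Within the stimulated cultures and within the rested one, the mitoribosomal share went with the depth of the cell. Rested cells had 6666, 7095 and 8809 CPM in the bands from 500, 1000 and 2000 UMIs. Stimulated cells with 8000 UMIs or more held 12945 to 13225 CPM, those with 4000 to under 8000 UMIs 12214 to 12610 CPM, and those with 2000 to under 4000 UMIs 11096 to 11991 CPM. In the band from 2000 UMIs rested cells had 8809 CPM (8246 to 9400, 41 cells), below each stimulated culture. In cells with 1000 to under 2000 UMIs the level was 9762 CPM (8903 to 10680, 31 cells) with 20 pmol M9C, 8399 CPM (7501 to 9375, 25 cells) with 2 pmol M9C, 9166 CPM with 20 pmol L6F and 8872 CPM with 80 pmol L6F, against 7095 CPM (6865 to 7331, 418 cells) in rested cells. With 0.2 pmol M9C only 18 cells fell in this band and their level is not read.

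In the lowest band, 500 to under 1000 UMIs, the order was not kept. Stimulated cells had 5626 to 6396 CPM there, in 35 to 77 cells per culture, against 6666 CPM (6492 to 6843) in 1116 rested cells. By their intervals, the value with 2 pmol M9C (4916 to 6437) was below that of rested cells and the other 4 overlapped it. In these stimulated cells 18.3% to 25.3% of UMIs were mitochondrial, against 2.44% in rested cells of the band. When cells above 10% mitochondrial UMIs were left out, 9 to 19 stimulated cells per culture remained in the band, under the 20 cells set as the minimum, and their levels are not read. The part that RNA content per cell takes in the difference between stimulated and rested cultures was not tested beyond these bands.

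**Figure D5:**
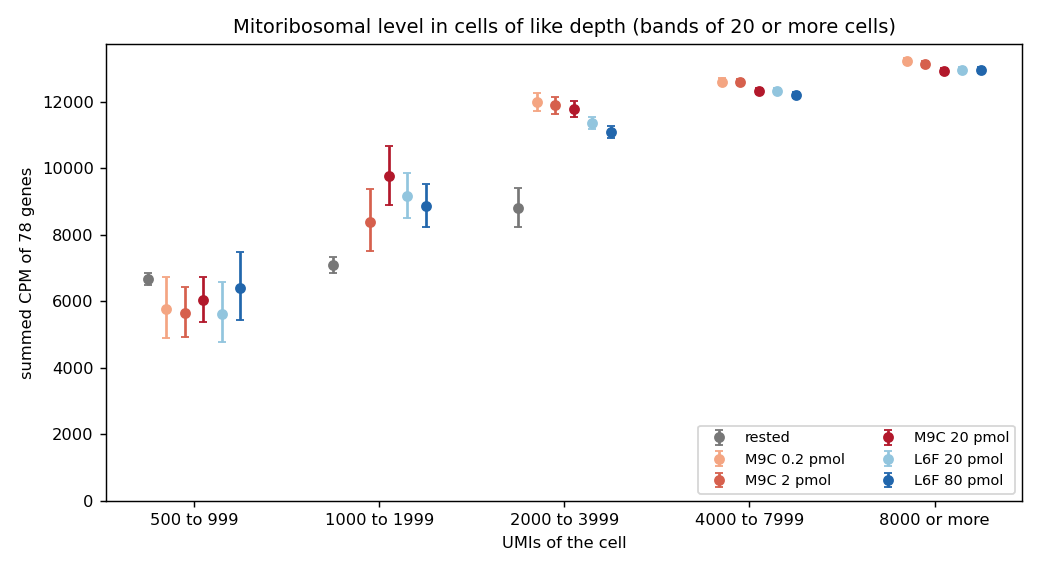
Summed CPM of the 78 members with exact Poisson 95% intervals, in bands of UMIs per cell, for each condition with 20 or more cells in the band. In the bands from 1000 and from 2000 UMIs the stimulated cultures lie at 8399 to 11991 CPM and the rested culture at 7095 and 8809 CPM. In the band from 500 UMIs rested cells, at 6666 CPM, have the highest value.

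Because most members differed in the same direction, their promoters were searched for short motifs of factors known to act on genes of the mitochondrial and growth programmes. RefSeq windows (GRCm38.p6) from 250 bases before to 50 bases after a gene's start matched 69 of the 78 members by symbol, in 75 windows. Both strands were searched for exact matches. The ETS core CCGGAAG, bound by factors such as GABPA, a regulator of respiratory chain genes, was in 34.7% of member windows, in 21.6% of windows of other genes at 10 CPM or more, and in 8.86% of all windows. The NRF1 core GCATGCGC was in 10.7%, 5.97% and 2.71% of these windows, and the same core with GC directly before it, a longer form of the motif, in 4.0%, 2.3% and 0.971%. The YY1 motif AAGATGGCG was in 10.7%, 3.72% and 1.4%. The E-box CACGTG, bound by Myc and its relatives, was in 9.33%, 10.9% and 7.15%, and the TATA box TATAAA in 6.67%, 6.5% and 13.6%. Median GC content was 58.7%, 61.3% and 52.7%.

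The ratios of members with and without each motif were set side by side, with no test. For 20 pmol M9C over rested cells, the median log2 ratio was 0.79 in 26 members with the ETS core and 0.98 in 43 without it, 1.00 in 8 members with the NRF1 core and 0.84 in 61 without it, and 1.03 in 8 members with the YY1 motif and 0.82 in 61 without it. The 5 members with an E-box had a median of 0.84 and the 64 without one a median of 0.86, and the 5 members with a TATA box had a median of 0.70 and the 64 without one a median of 0.89. These motif searches describe letters in a window and do not show binding.

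The last 150 bases before the start are shown for 4 of the members picked by the naming rules, to show where these elements lie. These 4 were chosen after the search because they hold a motif there. They are examples and say nothing of members with other ratios, and no motif was found in the windows of Mrps6, Mrps7, Mrpl12, Mrpl23 and Mrpl24. Capitals mark the ETS core in Mrpl22 (first of its 2 capital runs), Mrps22 and Mrpl58, the NRF1 core read on the other strand in Mrpl22 (second run), and the YY1 motif read on the other strand in Mrps11. The windows are chr11:58171514-58171663 (+ strand) for Mrpl22, chr9:98601680-98601829 (- strand) for Mrps22, chr7:78782981-78783130 (+ strand) for Mrps11 and chr11:115403602-115403751 (+ strand) for Mrpl58, and each sequence is written 5′ to 3′ on the strand of the gene.
Mrpl22: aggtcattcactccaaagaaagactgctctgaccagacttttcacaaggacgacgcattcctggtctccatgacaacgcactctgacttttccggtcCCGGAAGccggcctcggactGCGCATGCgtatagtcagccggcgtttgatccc
Mrps22: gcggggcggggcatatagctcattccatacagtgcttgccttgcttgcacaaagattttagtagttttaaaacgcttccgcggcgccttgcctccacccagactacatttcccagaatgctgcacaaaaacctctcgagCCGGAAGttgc
Mrps11: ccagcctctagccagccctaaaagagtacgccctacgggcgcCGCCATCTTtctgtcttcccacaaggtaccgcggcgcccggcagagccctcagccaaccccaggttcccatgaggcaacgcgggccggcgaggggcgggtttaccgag
Mrpl58: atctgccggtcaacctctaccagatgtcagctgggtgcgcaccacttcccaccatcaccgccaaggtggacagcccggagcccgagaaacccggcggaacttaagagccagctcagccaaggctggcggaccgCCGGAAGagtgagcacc

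Mrpl22, a protein of the peptide tunnel wall, had 52.8 CPM in rested cells, 122, 122 and 118 CPM with 0.2, 2 and 20 pmol M9C, and 104 and 95.1 CPM with 20 and 80 pmol L6F. Its motifs begin 53 and 33 bases before the start. Mrps22 and Mrps11, with motifs that begin 11 and 108 bases before it, were among the 8 members with the highest ratios. Mrpl58, whose ETS core begins 17 bases before the start, was among the 3 members with lower CPM in every stimulated culture.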

How the data were processed

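Per the submitters' processing notes, the authors made the deposited counts with bcl2fastq and Cell Ranger 6.0.1 on GRCm38 (mm10). The deposited matrix holds whole UMI counts per gene and hashtag counts per barcode, and a deposited text ties each hashtag to a condition. How barcodes were chosen is not given in the sources used here. No barcode occurred more than once.

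Cells were assigned by the hashtag rule given in the report, with no further filter, since 500 genes per cell would remove 52.3% of rested cells. Of 1768 barcodes left out, 28 had too few hashtag counts and 1740 no hashtag at 80%. Hashtags cannot show pairs of cells from 1 condition, 17.2% of random pairs. UMIs were summed per condition into CPM. Depth was 1495231 UMIs in rested cells, where 3 counts are 2.01 CPM, and 3 counts were 0.187 to 0.263 CPM in the stimulated cultures.

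Ratios have exact Clopper-Pearson 95% intervals (scipy), which cover counting error only, and were checked on simulated counts. A member counted as called at 10 CPM or more in either condition, past 2-fold (or, as a smaller threshold, 25% above or 20% below), with an interval excluding equality. The 10 comparisons set each stimulated condition over rested, higher over lower doses, and M9C over L6F at 20 pmol. Named members were the 8 highest and 6 lowest mean log2 ratios over rested at 50 CPM or more, the 3 highest and 3 lowest per comparison between stimuli (by the interval bound nearest 0, of which the clearest are printed), the 3 with most UMIs, and 2 each way per pathway list. In the translation factor list, Mtrfr had no row in the matrix. Members and lists were chosen with earlier results of these data known. Positions and overlaps come from GENCODE vM21, and exons of 3 members overlap same-strand genes (Mrps6, Mrps34 and Mrps24) and those of 27 overlap genes on the other strand.

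Alternatives were HTODemux calls (Seurat 5.3.0 in R 4.3.3, quantile 0.99, own run) with filters, stricter hashtags, caps on UMIs, other scalings (TMM and median-of-ratios) and thresholds.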

Additional observations from a re-analysis of the deposited data

How the results depend on the processing

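No paired analysis was possible because each condition is 1 culture, with no replicate to leave out. Some settings moved no summed ratio, median, count of members, thinned share or promoter share past a set margin. They were stricter hashtag calls, leaving out cells with other cell type markers, no filter on low levels and a filter at 50 CPM. Thinning to 1000 UMIs and a promoter window of 150 bases moved none either. The margin was counting error for summed ratios and a binomial interval for promoter shares. Medians had an interval over members, counts a fold limit and thinned shares the SD over cells, which is wide. Stricter calls kept 549 rested cells, and thinning to 1000 UMIs left out 1116 of 1583. Where other settings moved a value, the cause was not tested. Values below are for 0.2, 2 and 20 pmol M9C and 20 and 80 pmol L6F over rested cells, in that order.

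The summed log2 ratio was 0.81, 0.80, 0.77, 0.76 and 0.75 with cells of 500 genes or more and at most 10% mitochondrial UMIs. With HTODemux calls and these filters it was 0.69, 0.68, 0.66, 0.64 and 0.63, on 850 rested cells. These filters on the main hashtag calls kept 755 rested cells, so HTODemux did not give a smaller rested set. The rested sum was 8013 CPM with HTODemux and 7368 CPM with the main calls, both with these filters. Without cells above 3 times their condition's median UMIs it was 0.90, 0.89, 0.86, 0.85 and 0.84. It was 1.00, 1.00, 0.96, 0.98 and 0.95 under TMM, 0.95, 0.95, 0.91, 0.91 and 0.89 with median-of-ratios factors, and 0.61, 0.61, 0.57, 0.57 and 0.56 with cytosolic ribosomal protein, mitochondrial, Malat1 and Gm42418 UMIs out of the total. In UMIs per cell, which keep the difference in RNA content, it was 3.74, 3.70, 3.64, 3.57 and 3.51. The median over all genes for 20 pmol M9C, 0.09 in CPM, was 0.24 under TMM, 0.18 with median-of-ratios factors, -0.15 with the reduced total and 2.92 per cell, so these scalings shifted all genes as well. With HTODemux and filters the all-gene median was 0.05 and with the gene and mitochondrial filter alone 0.10, so there the members' sums differed from the main values without a like shift of all genes.

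The median log2 ratio of members moved with HTODemux and filters for 2 and 20 pmol M9C and both L6F doses, to 0.70, 0.67, 0.66 and 0.63. Under TMM it moved to 1.05 (0.2 pmol M9C), 0.98 and 0.99 (20 and 80 pmol L6F). It was 0.66, 0.65, 0.61, 0.58 and 0.60 with the reduced total and 3.8, 3.74, 3.68, 3.57 and 3.54 per cell. Members at least 2-fold higher numbered 17, 14, 16, 10 and 9 with HTODemux and filters, 18, 16, 13, 12 and 10 with the reduced total, and 78 in each comparison per cell. Of all genes, 9.98% to 12.9% were 2-fold higher with HTODemux and filters, 10.2% to 12.2% with the reduced total and 93.0% to 94.5% per cell, so the last count says little about members. At 25% or more above or 20% or more below they numbered 71, 70, 68, 70 and 68 higher, with 1 lower for 2 pmol M9C and 2 lower for 20 pmol M9C, and 1 each way for 20 pmol M9C over 20 pmol L6F. In the band of 500 to under 1000 UMIs, leaving out cells above 10% mitochondrial UMIs gave 12593, 10796, 10887, 7804 and 9009 CPM. These values rest on 9 to 19 cells each, too few to read. The 20 pmol L6F interval (6396 to 9430) overlapped that of rested cells (6492 to 6843), and the other stimulated intervals lay above it.

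Between stimulated cultures, differences were small enough for the scaling to turn their sign. Under TMM the summed log2 ratio was 0.0042 for 2 over 0.2 pmol M9C, -0.0415 for 20 over 2 pmol M9C and, turned round, -0.0128 for 20 pmol M9C over 20 pmol L6F, where the member median was -0.0163. With the reduced total the last sum was -0.0003. The member median for 20 over 2 pmol M9C was -0.0496 under TMM, and with median-of-ratios factors its sum and median were -0.0437 and -0.0518. Per cell, the sums were -0.0417 (2 over 0.2 pmol M9C), -0.0599 (20 over 2), -0.1016 (20 over 0.2), -0.0621 (80 over 20 pmol L6F) and 0.0761 (M9C over L6F), and the medians -0.034, -0.068, -0.0992, -0.0643 and 0.0726.

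Turns of sign are listed here only for comparisons whose main interval excluded equality. Single members turned sign mainly per cell, where all 78 were above rested cells in each stimulated culture. Mrpl23 was then at 2.57, 2.59 and 2.46 for the M9C doses and 2.5 for 80 pmol L6F, Mrpl58 at 2.63, 2.53 and 2.48 for M9C and 2.60 for 20 pmol L6F, Mrpl24 at 2.55 and 2.52 for 2 and 20 pmol M9C and 2.5 for 20 pmol L6F, and Mrps24 at 0.0031 for 20 pmol M9C over 20 pmol L6F. Under TMM, Mrpl58 was at 0.0090 for 20 pmol L6F over rested cells. Depth limits the rested culture most, where the member with the fewest UMIs, Mrps2, had 10.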
